A study of Mus musculus with 7 samples.

Results

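The genes described here are 45 genes of DNA replication and of the passage from G1 into S phase, measured in sorted mouse glioma cells with 2, 1 or 0 functional alleles of Ptprd. They comprise the proteins that mark and license origins, the MCM helicase and its activators, the polymerases, the sliding clamp with its loader and the single-strand binding proteins, the enzymes that join Okazaki fragments, the makers of DNA precursors, factors of newly copied chromatin, and the cyclins and transcription factor of the G1/S switch. The genes were taken from a named list, matched by symbol to probe sets that name 1 gene, and each was read from its brightest probe set (the highest mean level of the 7 arrays). Of the 45 genes, 43 were found among the 12393 genes so named. Gins2 and Chaf1a had no probe set that named them alone and were not analysed here. All 43 passed the filter on dim probe sets (2 or more arrays with a level over the 30th percentile of that array) and were among 9243 genes tested. 40 of them passed it on all 7 arrays. Cdc6 and Chaf1b passed on 6 arrays, and Orc1 passed only on the 2 heterozygous arrays, so its place among the genes tested depended on the group in which it was high.

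Gliomas had been started in newborn mice, on days 1 to 3 after birth, by injecting the brain with a bird retrovirus vector, RCAS PDGFB GFP. It brings the growth factor PDGFB and green fluorescent protein into cells that make its receptor tv-A, which is driven here by the Nestin promoter of neural progenitors. All 3 groups were p16-/-, so none had this inhibitor of the kinases that open the G1/S switch, and the strain background was mixed in all (C57/BL6 with FVB/N). The groups were Ptprd+/+ p16-/- (wild type, 2 arrays), Ptprd+/- p16-/- (heterozygous, 2 arrays) and Ptprd-/- p16-/- (null, 3 arrays). Ptprd encodes a receptor-type tyrosine phosphatase. Tumours were collected when mice became ill or 12 weeks after injection, living fluorescent cells were sorted, and 75 ng of total RNA was labelled by in vitro transcription from the 3′ ends of transcripts. Arrays are labelled as biological replicates, with no word on whether each came from its own mouse. The p-values therefore reflect only the spread seen among these arrays, which may be technical in part.

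As background, a cell copies its DNA once per cycle by loading the MCM helicase at origins in G1, when cyclin-dependent kinase activity is low, and by firing those origins in S phase, when cyclin E and its kinase are active. The kinases inactivate RB family proteins, which frees E2F transcription factors to switch on most of the genes described here, often together with the factor NF-Y at CCAAT boxes. RNA of these genes therefore tends to be abundant in populations with many dividing cells. In RNA from a cell population, a larger share of cells in S phase and more RNA per such cell cannot be told apart.

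The promoters of 4 of the genes that passed the test are shown as examples: E2F and CCAAT words together (Rrm2, Mcm7), an E2F word alone (Fen1), and neither (Pold1). Promoters with a CCAAT box alone were also found in the list, as in Pcna, and are not shown. Sequences are from RefSeq for the mouse build GRCm38.p6, printed 5′ to 3′ on the gene's strand, with the words in capitals. Rrm2 is shown on the plus strand at chr12:24708004-24708253, Mcm7 on the minus strand at chr5:138171884-138172133, and Pold1 on the minus strand at chr7:44548816-44549065, each as the 250 bases before an annotated start. For Fen1, which has 2 annotated starts, 27 bases around the word are shown, on the minus strand at chr19:10203939-10203965.
Rrm2: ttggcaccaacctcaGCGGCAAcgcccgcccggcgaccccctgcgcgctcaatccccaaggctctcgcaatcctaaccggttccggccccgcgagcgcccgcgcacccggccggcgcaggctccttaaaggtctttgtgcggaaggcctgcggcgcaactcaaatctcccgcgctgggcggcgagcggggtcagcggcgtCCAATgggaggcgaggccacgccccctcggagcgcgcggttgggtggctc
Mcm7: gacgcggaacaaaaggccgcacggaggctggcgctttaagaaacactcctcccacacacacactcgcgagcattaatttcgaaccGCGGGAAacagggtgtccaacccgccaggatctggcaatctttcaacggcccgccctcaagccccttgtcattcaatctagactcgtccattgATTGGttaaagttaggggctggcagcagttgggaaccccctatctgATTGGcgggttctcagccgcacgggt
Fen1: caggaggctgTTCGCGCctggcagatc
Pold1: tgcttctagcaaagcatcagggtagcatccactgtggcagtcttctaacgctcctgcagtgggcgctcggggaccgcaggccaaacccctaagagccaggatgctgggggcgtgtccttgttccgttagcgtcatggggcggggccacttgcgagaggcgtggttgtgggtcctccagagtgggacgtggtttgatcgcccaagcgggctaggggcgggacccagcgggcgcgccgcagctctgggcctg
The words searched on both strands were 4 forms of the E2F site and the CCAAT box. The first form was TTCGCGC. The next form was TTGGCGC. Another was written as TTCCCGC. The last of them was TTGCCGC. No E2F word holds a CCAAT box, though TTGGCGC and the reverse of the box share the letters TTGG and can overlap. In Rrm2, TTGCCGC lies on the opposite strand and so reads GCGGCAA, and CCAAT begins 50 bases before the start. In Mcm7, TTCCCGC and both CCAAT boxes lie on the opposite strand. In Fen1 the word is TTCGCGC.

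Promoter windows were given for 38 of the 45 genes. Those of Gmnn, Mcm4, Gins1, Gins2, Pole, Rfc2 and Ccne2 were not analysed here. An E2F word was present in 17 of the 38 genes (44.7%), against 14.2% of the 9887 genes of the array with a window and 9.01% of the 27025 genes with a window. A CCAAT box was present in 24 (63.2%), against 39.9% and 37.5%, and both in 13 (34.2%), against 6.12% and 3.74%. Of all 32851 windows of this length, 7.89% held an E2F word and 33.8% a CCAAT box. TTCGCGC was found in Orc1, Mcm5, Mcm6, Rfc3, Fen1, Uhrf1 and Dnmt1, and TTCCCGC in Cdc6, Mcm7, Cdc7, Pola1, Prim1, Rpa2, Rrm1, Chaf1a, Chaf1b and Uhrf1. A match is only a match of letters. The median log2 difference between heterozygous and wild type was 0.74 (range 0.19 to 1.98) in the 16 tested genes with an E2F word and 0.67 (0.08 to 1.40) in the 21 without.

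Array medians lay between 6.63 and 6.72 on the log2 scale, and 0 pairs of arrays were identical. The cells carried the markers of glioma progenitors: 9 of 10 listed genes were measured, including Olig1, Olig2, Sox10 and Pdgfra, with summed linear signals of 50210 to 50810 in wild type, 31420 to 38550 in heterozygous and 45170 to 47400 in null arrays. Microglia and macrophage markers were also present and differed between groups, with 12 of 14 listed genes tested and summed signals of 765 to 1064 in wild type, 2210 to 2805 in heterozygous and 860 to 1303 in null arrays. Of these defining markers, Itgam was dim on all arrays. Lymphocyte markers summed to 98 to 123 over all arrays, with Cd3d, Cd79a and Ms4a1 dim on all arrays. Xist and Y-linked transcripts were both high on heterozygous replicate 1 (Xist 11.16, Kdm5d 7.86) and null replicate 1 (Xist 12.73, Kdm5d 6.98), whereas cells of 1 mouse normally carry one kind or the other. Results are also given without these 2 arrays.

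The first question was how replication genes differ between tumour cells that kept both alleles of Ptprd and cells that kept 1. All 43 genes had a higher mean in heterozygous than in wild-type cells, and 5 rose past the test: Gmnn, Gins1, Pold1, Fen1 and Ccne1. None fell, beside 5.95% of all genes called lower. These 5 are 11.6% of the 43, beside 4.20% of all 9243 genes called higher and 10.1% called in either direction, at a limma p adjusted by Benjamini-Hochberg over all genes of under 0.05. The median log2 difference was 0.73, a difference of 1 being 2-fold, beside -0.04 over all genes, of which 44.9% had a difference above 0. It ranged from 0.08 for Rfc1 to 1.98 for Rrm2. In 37 of the 43 genes (86.0%) both heterozygous arrays lay above both wild-type arrays, beside 26.2% of all genes. The 6 whose groups overlapped were Orc2, Rfc1, Rfc2, Rfc3, Tyms and Slbp. At an unadjusted p under 0.05 there were 26 of the 43, beside 29.9% of all genes in either direction. Orc1, tested only through the heterozygous arrays, is counted among the 43, the 37 and the 26, so its part in these counts is no evidence.

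**Figure D1:**
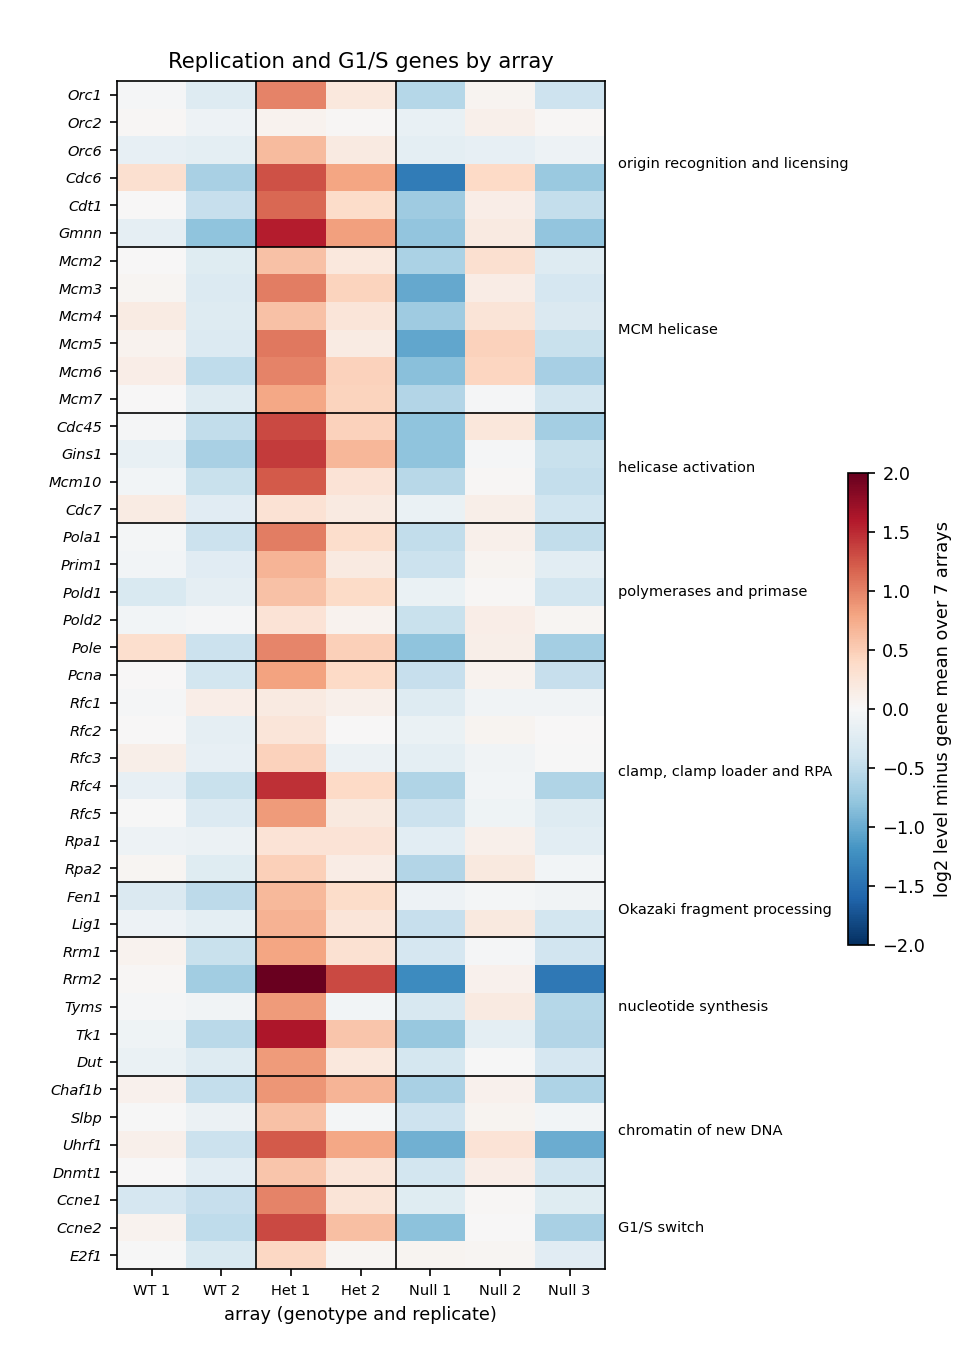
The plot shows the level of 43 replication and G1/S genes (rows, grouped by role) on 7 arrays (columns), as the log2 level minus the mean of that gene over the 7 arrays, in colour. Heterozygous replicate 1 is the highest array in 42 of the 43 genes, and null replicate 1 is the lowest in 30.

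The second question was whether loss of the other allele went further the same way. In null against wild-type cells, 0 of the 43 genes passed the test, and 0 of all 9243 genes (0%) passed. At an unadjusted limma p under 0.05 there were 475 genes in all (5.14%) and 1 of the 43, Fen1. The mean was below wild type in 35 of the 43 genes and above it in 8 (Orc2, Orc6, Gmnn, Pold1, Rfc2, Fen1, Ccne1 and E2f1), beside 49.8% of all genes above. This split turned on single arrays. Without wild type replicate 1, 31 of the 43 were above, and without null replicate 1, 25 were. Without wild type replicate 2, null replicate 2 or null replicate 3, the genes above were 4, 5 and 13. With all 7 arrays the median difference was -0.10, beside 0.00 over all genes, and the values ran from -0.54 for Rrm2 to 0.33 for Fen1. The groups did not overlap in Fen1 and Ccne1 (null higher, beside 10.7% of all genes) and in Rfc1 (null lower, beside 11.0%). The 95% intervals held 0 in 42 of the 43 and reached, at the median, 0.55 to either side. Their outermost bounds were -1.66 and 0.90. The upper bounds of Gmnn (0.90), Mcm5 (0.81), Cdc6 (0.80), Mcm6 (0.77) and Ccne1 (0.75) lay above 0.73, the median difference seen in heterozygous cells. The heterozygous differences of these genes themselves were 1.69, 0.70, 1.19, 0.91 and 1.02. Of these, only that of Mcm5 lay below its upper bound.

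**Figure D2:**
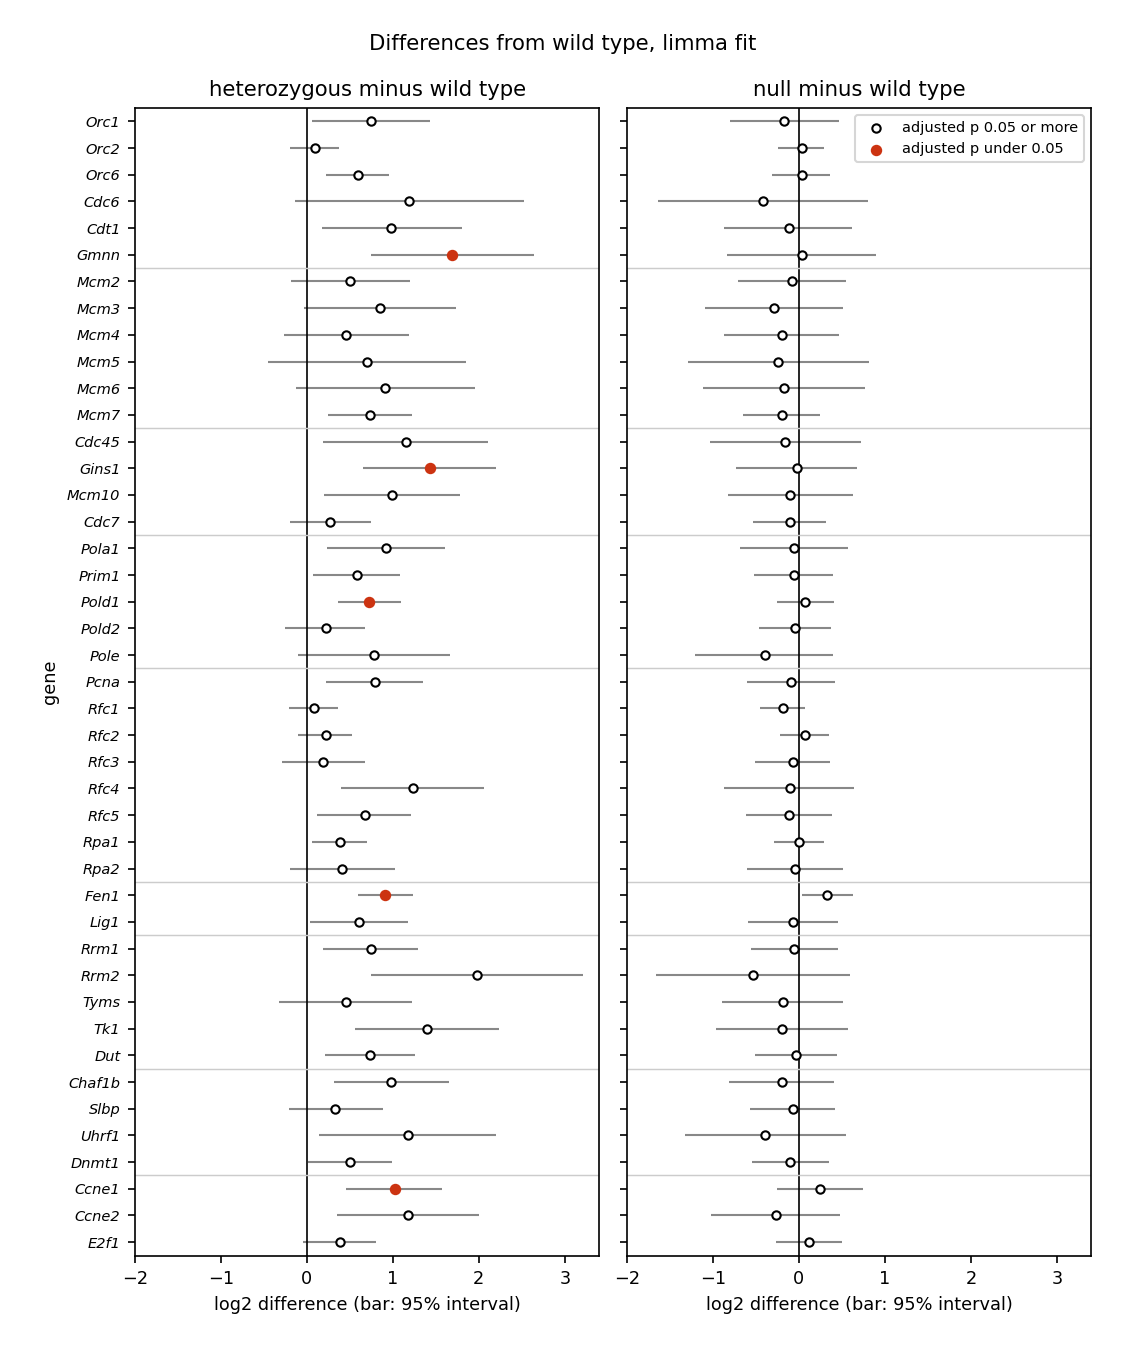
The plot shows the log2 difference from wild type with its 95% interval for each of the 43 genes, for heterozygous cells on the left and null cells on the right. Filled red points have an adjusted p under 0.05. All points on the left lie above 0, from 0.08 to 1.98, and those on the right lie between -0.54 and 0.33.

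Null cells were then compared with heterozygous cells, which uses the same heterozygous arrays as the first comparison, so the 2 sets of values are not independent. Here 10 of the 43 genes fell past the test (23.3%, beside 3.96% of all genes called lower and 8.96% called in either direction) and none rose. They were Gmnn, Mcm7, Gins1, Pold1, Rfc4, Fen1, Rrm2, Tk1, Chaf1b and Ccne2. All 43 differences were below 0, while 57.0% of all genes had one above 0. The 43 had a median of -0.79 beside 0.04 over all genes, and 31 had an unadjusted p under 0.05, beside 28.5% of all genes in either direction. In 32 genes (74.4%, beside 17.9% of all genes) all 3 null arrays lay below both heterozygous arrays. Orc1, tested only through the heterozygous arrays, is again counted among the 43, the 31 and the 32. Gmnn, Gins1, Pold1 and Fen1 passed both tests. In the F test for any difference among the 3 genotypes, only Fen1 passed (adjusted p = 0.0275), beside 5.65% of all genes.

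These counts depended on single arrays, as did those over all 9243 genes. In null against heterozygous, leaving out either wild-type array gives the same fit, because a single array of that group adds no spread. In heterozygous against wild type, 0 of the 43 genes passed without heterozygous replicate 1 (165 of all genes) and 0 without wild type replicate 2 (33 of all genes). Without wild type replicate 1 there was 1 (Fen1, adjusted p = 0.0469; 196 of all genes), without null replicate 1 there were 2 (716) and without null replicate 3 also 2 (679). Without null replicate 2 there were 7 (763), and without heterozygous replicate 2 there were 9 (802). In null against heterozygous, 0 passed without heterozygous replicate 1 (90 of all genes), null replicate 1 (290) or null replicate 3 (205). Rrm2 alone passed without wild type replicate 1 (355) and without wild type replicate 2 (355), 11 passed without heterozygous replicate 2 (699) and 21 without null replicate 2 (732). Without both heterozygous replicate 1 and null replicate 1, which had Xist and Y-linked transcripts together, 0 of 43 passed in either comparison, as did 0 of all genes tested. The median difference from wild type without them was 0.50, with 41 of the 43 genes above 0, and the median of null minus heterozygous was -0.39, with 38 below 0.

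Among the licensing factors, Gmnn carried the clearest difference. It encodes geminin, which holds the loading factor CDT1 inactive from S phase to mitosis so that origins are not licensed again. Its log2 level was 7.53 and 6.91 on the wild-type arrays, 9.28 and 8.54 on the heterozygous arrays, and 6.93, 7.89 and 6.92 on the null arrays. Both heterozygous arrays were above the other 5, whose values overlapped. Gmnn rose 3.22-fold in heterozygous cells (log2 difference 1.69 ± 0.40, SE; adjusted p = 0.0449) and was 3.16-fold lower in null than in heterozygous cells (-1.66 ± 0.37; adjusted p = 0.0405). Null and wild type differed by 0.03 (95% interval -0.84 to 0.90). Cdt1, the factor that geminin restrains, read 8.82 and 8.35 in wild type, 9.96 and 9.18 in heterozygous, and 8.11, 8.94 and 8.34 in null cells. Its heterozygous arrays were also the highest 2, but it did not pass the test (0.98 ± 0.34 above wild type; adjusted p = 0.112). Of the other licensing genes, Cdc6, which loads the helicase together with CDT1, differed by 1.19 and the origin recognition subunits Orc1, Orc6 and Orc2 by 0.74, 0.59 and 0.09. None of these 4 passed. Orc2 was the only gene of the 43 whose highest array was not heterozygous replicate 1: it read between 8.20 and 8.46 on all arrays, with the highest value on null replicate 2.

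The 6 MCM genes encode the ring that unwinds DNA at the fork. All 6 had both heterozygous arrays above both wild-type arrays, by 0.46 for Mcm4 to 0.91 for Mcm6, with a median of 0.71, and 0 of the 6 passed that test. Mcm7 read 10.43 and 10.17 in wild type, 11.19 and 10.87 in heterozygous, and 9.84, 10.40 and 10.05 in null cells. The heterozygous arrays were again the highest 2, and null and wild-type values overlapped. Mcm7 was 1.91-fold lower in null than in heterozygous cells (log2 difference -0.93 ± 0.19; adjusted p = 0.0339), while its difference of heterozygous from wild type was 0.73 ± 0.21 (adjusted p = 0.0688). The difference of null from heterozygous did not pass on the probe set that is not of the _s_at or _x_at class, whose probes can match other genes (-0.44, adjusted p = 0.460). In Mcm2, Mcm4 and Mcm5 the null arrays overlapped with the heterozygous ones: null replicate 2 read 9.38, 9.97 and 7.53 for these genes, against 9.27, 9.96 and 7.22 on heterozygous replicate 2.

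The loaded helicase is switched on when CDC45 and the GINS complex join it, with the help of MCM10 and of the kinase CDC7. Gins1, a GINS subunit, read 7.35 and 6.84 in wild type, 8.89 and 8.15 in heterozygous, and 6.69, 7.47 and 7.05 in null cells. The heterozygous arrays stood above all others by at least the distance between the wild-type arrays. Gins1 rose 2.69-fold in heterozygous cells (1.43 ± 0.33; adjusted p = 0.0414) and was 2.73-fold lower in null than in heterozygous cells (-1.45 ± 0.30; adjusted p = 0.0352). In heterozygous cells Cdc45 and Mcm10 exceeded wild type by 1.15 and 0.99, without passing (adjusted p = 0.114 and 0.104). Cdc7 differed little: it read 9.03 and 8.63 in wild type, 9.15 and 9.05 in heterozygous, and 8.73, 8.98 and 8.47 in null cells. The difference of heterozygous from wild type was 0.27 (95% interval -0.20 to 0.74), and a second probe set of Cdc7 gave -0.03.

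Polymerase alpha and its primase start each new strand, polymerase delta extends the lagging strand and polymerase epsilon the leading strand. Pold1, the catalytic subunit of delta, read 7.69 and 7.82 in wild type, 8.58 and 8.38 in heterozygous, and 7.86, 8.01 and 7.62 in null cells. The heterozygous arrays were the highest 2, and the null values spanned the wild-type ones. Pold1 rose 1.65-fold in heterozygous cells (0.72 ± 0.16; adjusted p = 0.0347) and was 1.57-fold lower in null than in heterozygous cells (-0.65 ± 0.14; adjusted p = 0.0395). Its second probe set, of neither class, gave 0.53 (adjusted p = 0.0486) and -0.36 (adjusted p = 0.0993). Prim1, the primase subunit that makes the RNA primer, read 8.98 and 8.80 in wild type, 9.72 and 9.22 in heterozygous, and 8.60, 9.09 and 8.82 in null cells. Here too the heterozygous arrays were the highest, and the difference of 0.58 ± 0.21 from wild type did not pass (adjusted p = 0.128). Pola1, Pole and Pold2 differed by 0.92, 0.78 and 0.22, and none of them passed.

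PCNA is the ring that tethers polymerases to DNA, RFC opens it and places it on primed sites, and RPA coats single strands. Pcna read 11.74 and 11.36 in wild type, 12.54 and 12.14 in heterozygous, and 11.27, 11.81 and 11.28 in null cells. The heterozygous arrays were above the rest, by 0.79 ± 0.24 over wild type (adjusted p = 0.0795) and with null lower than heterozygous by a log2 difference of -0.88 ± 0.22 (adjusted p = 0.0512), neither past the threshold. The 5 RFC genes ranged widely. Rfc4 read 7.99 and 7.70 in wild type, 9.61 and 8.54 in heterozygous, and 7.54, 8.10 and 7.55 in null cells. Heterozygous replicate 1 stood 1.06 above replicate 2, the largest such gap among the 43 genes. Rfc4 was 2.53-fold lower in null than in heterozygous cells (-1.34 ± 0.32; adjusted p = 0.0474) and its difference of 1.23 ± 0.35 from wild type in heterozygous cells did not pass (adjusted p = 0.0695). Rfc5 differed by 0.67, Rfc2 by 0.22, Rfc3 by 0.19 and Rfc1, the large subunit of the loader, by 0.08, none of them past the test. Rfc1 read 8.54 and 8.69 in wild type, 8.73 and 8.66 in heterozygous, and 8.30, 8.49 and 8.49 in null cells. It was the 1 gene in which all null arrays lay below all wild-type arrays, by -0.19 (95% interval -0.45 to 0.07). Its 2 other probe sets gave -0.16 and -0.20, and on both of them null and wild-type arrays overlapped. In heterozygous cells Rpa1 and Rpa2 exceeded wild type by 0.38 and 0.41 and did not pass.

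FEN1 trims the flaps of Okazaki fragments and LIG1 seals the nicks. Fen1 read 8.92 and 8.68 in wild type, 9.85 and 9.58 in heterozygous, and 9.11, 9.17 and 9.13 in null cells. The 3 groups did not overlap, with null between the other two. Fen1 rose 1.88-fold in heterozygous cells (0.91 ± 0.14; adjusted p = 0.0129) and was 1.49-fold lower in null than in heterozygous cells (-0.58 ± 0.12; adjusted p = 0.0375). The null arrays were above wild type by 0.33 (95% interval 0.04 to 0.63; unadjusted p = 0.0306, adjusted p = 0.883). The place of the null arrays was not shared by the second probe set of Fen1, which is not of the _s_at or _x_at class. It read 7.53 and 7.24 in wild type, 8.54 and 7.85 in heterozygous, and 6.84, 7.60 and 7.27 in null cells, so that null overlapped with wild type (difference -0.15). On that probe set the difference of heterozygous from wild type was 0.81, with an adjusted p of 0.126. Lig1 differed by 0.60 in heterozygous cells, without passing (adjusted p = 0.148).

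**Figure D3:**
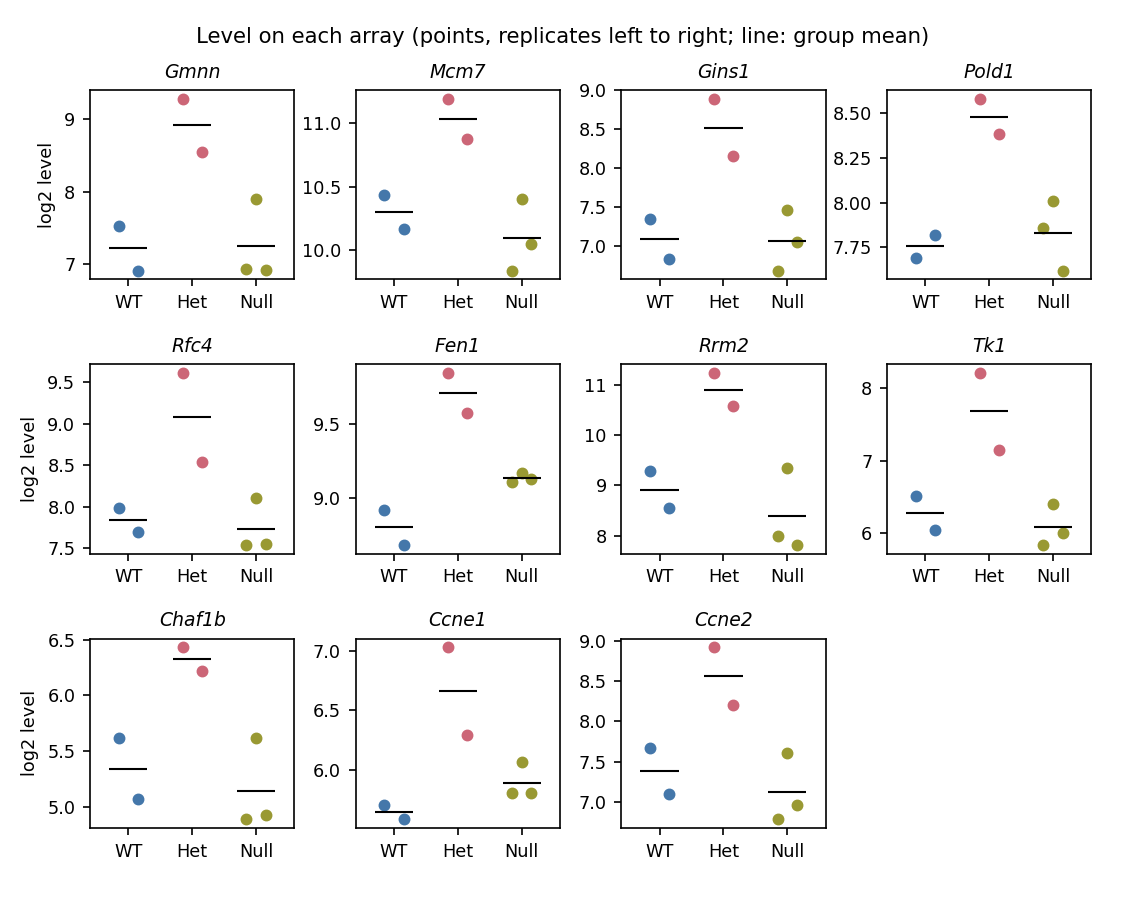
The plot shows the log2 level on each array (points, replicates from left to right) and the group mean (line) for the 11 genes that passed the test in at least 1 pair of genotypes. Each panel has its own vertical axis. Heterozygous arrays are the highest 2 in each panel. In Rrm2 the null arrays read 8.0, 9.34 and 7.82.

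Ribonucleotide reductase makes the deoxynucleotides that replication consumes, with RRM1 as its large and RRM2 as its S-phase subunit. Rrm2 read 9.28 and 8.56 in wild type, 11.23 and 10.57 in heterozygous, and 8.0, 9.34 and 7.82 in null cells. The heterozygous arrays were far above the rest, and the null arrays spread over 1.52 log2 units between replicates 2 and 3. Rrm2 was 5.73-fold lower in null than in heterozygous cells (-2.52 ± 0.48; adjusted p = 0.0281). Its difference of heterozygous from wild type, 1.98 ± 0.52, was the largest of the 43 but did not pass (adjusted p = 0.0564). The other 2 probe sets of Rrm2 gave 1.60 and 1.86 for that difference and -2.14 and -2.59 for null against heterozygous. Rrm1 read 9.44 and 8.93 in wild type, 10.16 and 9.68 in heterozygous, and 9.04, 9.35 and 8.99 in null cells. Its heterozygous arrays were also the highest 2. The difference of 0.74 ± 0.23 from wild type did not pass (adjusted p = 0.0875).

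Tk1 encodes thymidine kinase, which salvages thymidine and is made mainly in S phase. It read 6.51 and 6.05 in wild type, 8.21 and 7.15 in heterozygous, and 5.84, 6.40 and 6.01 in null cells. Heterozygous arrays were above all others. Tk1 was 3.03-fold lower in null than in heterozygous cells (-1.60 ± 0.32; adjusted p = 0.0336), and its difference of 1.40 ± 0.36 from wild type in heterozygous cells lay just short of the threshold (adjusted p = 0.0513). Dut, which removes dUTP, and Tyms, which makes dTMP, differed by 0.73 and 0.45 in heterozygous cells, and neither passed.

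Chromatin is rebuilt behind the fork by the histone chaperone CAF-1, of which Chaf1b is a subunit, while UHRF1 and DNMT1 copy DNA methylation onto the new strand and SLBP binds histone mRNA. Chaf1b read 5.62 and 5.07 in wild type, 6.43 and 6.22 in heterozygous, and 4.89, 5.62 and 4.93 in null cells, close to the filter for dim probe sets. Its heterozygous arrays were the highest, and it was 2.26-fold lower in null than in heterozygous cells (-1.18 ± 0.26; adjusted p = 0.0400), with a difference of 0.98 ± 0.28 from wild type in heterozygous cells (adjusted p = 0.0714). Dnmt1, the maintenance methyltransferase, read 9.75 and 9.52 in wild type, 10.29 and 9.98 in heterozygous, and 9.37, 9.87 and 9.37 in null cells. The heterozygous arrays were above the rest, and the difference of 0.50 ± 0.21 from wild type did not pass (adjusted p = 0.162). Uhrf1 and Slbp differed by 1.17 and 0.33 and did not pass.

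At the G1/S switch, cyclins E1 and E2 activate the kinase that fires origins, and E2F1 is both a driver and a target of the switch. Ccne1 read 5.70 and 5.58 in wild type, 7.03 and 6.29 in heterozygous, and 5.80, 6.06 and 5.80 in null cells. The null arrays lay above wild type and below heterozygous arrays. Ccne1 rose 2.03-fold in heterozygous cells (1.02 ± 0.24; adjusted p = 0.0417). Null against heterozygous did not pass (-0.77 ± 0.21; adjusted p = 0.0668), and null exceeded wild type by 0.25 (95% interval -0.26 to 0.75). Ccne2 read 7.67 and 7.10 in wild type, 8.92 and 8.20 in heterozygous, and 6.78, 7.61 and 6.96 in null cells. Here the null arrays overlapped with wild type. Ccne2 was 2.72-fold lower in null than in heterozygous cells (-1.45 ± 0.32; adjusted p = 0.0403), and its difference of 1.18 ± 0.35 from wild type in heterozygous cells did not pass (adjusted p = 0.0760). E2f1 differed from wild type by 0.38 in heterozygous cells and did not pass (adjusted p = 0.202).

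The arrays of a group also differed from each other in a common direction across these genes. Heterozygous replicate 1 was above replicate 2 in 43 of 43 genes (Rpa1 by a gap that rounds to 0), beside 43.0% of all genes, with a median gap of 0.50. Wild type replicate 1 was above replicate 2 in 40 of 43, beside 47.0% of all genes, with a median gap of 0.29. The exceptions were Pold1, Pold2 and Rfc1. Null replicate 2 was the highest null array in 39 of 43, beside 33.0% of all genes, except in Orc6, Rfc1, Rfc3 and E2f1. It exceeded null replicate 1 by a median of 0.56 and null replicate 3 by 0.48. Null replicate 1 was the lowest of all 7 arrays in 30 genes, beside 16.5% of all genes. For comparison, heterozygous replicate 2 exceeded wild type replicate 1 by a median of 0.33, in 38 of 43 genes. The 5 exceptions were Orc2, Rfc2, Rfc3, Tyms and Slbp. Wild type replicate 1 and null replicate 2 were also the 2 arrays without high Xist (5.40 and 5.14, against 11.16 to 12.92 on the other 5). Whether this has a part in the order of the arrays was not tested.

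Other genes of the cell cycle were read from further lists. Of 38 further replication genes, 28 were tested (Recql4 only through the heterozygous arrays), and 26 had a higher mean in heterozygous than in wild-type cells, with a median of 0.44. The share of all genes with a higher mean was 44.9%. 1 of the 28 rose (3.57%, beside 4.20% of all genes), Pole2, an accessory subunit of polymerase epsilon (1.03 ± 0.25; adjusted p = 0.0455). In null against heterozygous cells 3 of the 28 fell (10.7%, beside 3.96% of all genes): Pole2 (-1.01 ± 0.23; adjusted p = 0.0412), the histone chaperone Asf1b (-1.18 ± 0.28; adjusted p = 0.0483) and the flap nuclease and helicase Dna2 (-0.97 ± 0.24; adjusted p = 0.0496). The median was -0.58. Pola2, the regulatory subunit of polymerase alpha, differed by 0.68 and -0.73 in the 2 comparisons and did not pass.

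E2F transcription factors and the RB proteins that restrain them were listed apart. Of 14 listed, 11 were tested, and 0 passed in heterozygous against wild type, where 3 had an unadjusted limma p under 0.05, beside 29.9% of all genes. The median was 0.12, with 6 of 11 above 0. In null against heterozygous, 1 of the 11 fell (9.09%, beside 3.96% of all genes). It was Tfdp1, a DNA-binding partner of several E2F proteins (-0.76 ± 0.15, limma adjusted p = 0.0306). The other 10 did not pass. E2f8, a repressor of the family, was 1.01 above wild type in heterozygous cells, and the RB relatives Rbl1 and Rbl2 differed by 0.50 and -0.43, none of them past the test.

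Genes of mitosis, which act after replication is complete, were the next list. All 24 tested of 25 listed had a higher mean in heterozygous than in wild-type cells, with a median of 1.38, and 1 rose (4.17%, beside 4.20% of all genes), the spindle checkpoint gene Mad2l1 (1.36 ± 0.33; adjusted p = 0.0482). In null against heterozygous cells 9 of the 24 fell (37.5%, beside 3.96% of all genes), with a median of -1.90 over the list. They were Mki67, Top2a, Ccna2, Plk1, Bub1, Kif11, Mad2l1, Nusap1 and Prc1. Among them Nusap1, a spindle protein, fell by 2.35 ± 0.43 on the log2 scale (adjusted p = 0.0271) and Top2a, a topoisomerase, by 2.12 ± 0.46 (adjusted p = 0.0392). In null against wild type 0 of the 24 passed, the smallest unadjusted limma p was 0.219, and the median was -0.46.

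**Figure D4:**
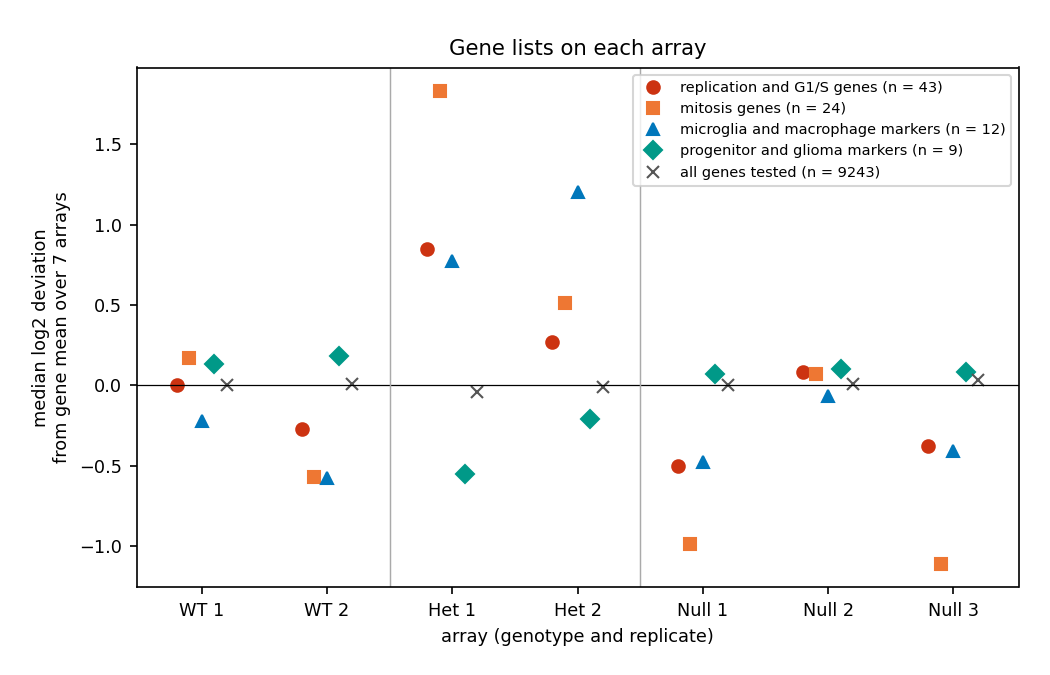
The plot shows, for each array, the median over a gene list of the log2 level minus the mean of that gene over 7 arrays. The replication and G1/S genes stand at 0.85 and 0.27 on the heterozygous arrays, microglia and macrophage markers at 0.77 and 1.20, and all genes tested between -0.04 and 0.03.

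Some marker lists of cell types also differed between heterozygous and wild-type cells, up or down. Of the 12 microglia and macrophage markers tested, 11 rose in heterozygous against wild-type cells (91.7%, beside 4.20% of all genes), with a median of 1.37. In null against heterozygous cells 9 of them fell (75%, beside 3.96% of all genes). Ptprc and Cd68 passed the filter on dim probe sets only through the heterozygous arrays; among the other 10, 9 rose and 7 fell in these comparisons, with a median difference of 1.43 from wild type in heterozygous cells. Of 9 progenitor and glioma markers, 5 fell in heterozygous cells (55.6%, beside 5.95% of all genes), with a median of -0.63. Of 4 astrocyte markers 2 rose (50%, beside 4.20% of all genes), 1 of which (Aldh1l1) passed the filter only through the heterozygous arrays. Of 5 neuron markers 2 fell (40%, beside 5.95% of all genes), while the other 3 lay above 0, and the median was 0.03. None passed among 4 markers of myelinating oligodendrocytes, 4 of endothelium and pericytes and 1 of lymphocytes. The lists ordered the heterozygous arrays differently: replication genes stood at 0.85 on replicate 1 and 0.27 on replicate 2, and mitosis genes at 1.83 and 0.51, while microglia and macrophage markers stood at 0.77 and 1.20. Within wild type, replication genes and microglia markers were both higher on replicate 1 (0.00 and -0.22) than on replicate 2 (-0.27 and -0.58), and within null both were highest on replicate 2 (0.08 and -0.07). The part of other cell types in the differences of the replication genes was not tested. The difference between 3′ and 5′ signal of the Actb control probe sets, a sign of RNA integrity, ran from 0.96 to 1.34 over the arrays, with 0.96 and 1.31 in wild type, 1.17 and 1.33 in heterozygous, and 1.05 to 1.34 in null cells. The same difference for the Gapdh control probe sets ran from 0.19 to 0.47. With the mean of the Actb and Gapdh differences as a covariate, 2 of the 43 genes (372 of all genes) passed in heterozygous against wild type. The median of the 43 was then 0.85.

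25 of the 43 genes had more than 1 probe set, with 35 further probe sets in all. In heterozygous against wild type, 3 of the 35 had the opposite sign to the probe set used: 1 of Cdc7 (-0.03), 1 of Slbp (-0.09) and 1 of Tyms (-0.16). The last 2 were dim on all arrays. Among the 28 that passed the filter on every array, the probe set of Cdc7 was the only one of opposite sign. The probe sets used for Mcm2, Mcm3, Mcm7, Pold1, Fen1, Rrm2 and Dnmt1 belong to the _s_at and _x_at classes, whose probes can match transcripts of other genes. With such probe sets left out, 4 genes passed in heterozygous against wild type, beside 859 of all genes. In null against heterozygous 7 fell, beside 823 of all genes called in either direction. The medians of the 43 were 0.74 and -0.79.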

How the data were processed

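RNA of sorted glioma cells was measured on 7 Affymetrix mouse arrays. The authors deposited log2 values, made with RMA and Partek 6.6 according to the submitters' processing notes. RMA sets arrays to a common distribution, so a shift of all genes together cannot be seen. Of 22690 probe sets, 64 were controls, 20380 named 1 gene in the platform's annotation, 691 named several and 1555 were unnamed here. The 7 arrays entered 1 linear model with a mean per genotype and 4 residual degrees of freedom (limma 3.58.1, R 4.3.3), with two-sided moderated tests and Benjamini-Hochberg adjustment over 9243 genes at a threshold of 0.05. The fit was tested on simulated data. The genes, roles, lists and promoter words were chosen with earlier results of these data known. Values on each array are given for genes that passed any test and, per role, for those of smallest F-test p and of highest mean level. Promoter sequences are for up to 4 of these, and from the other cell cycle lists the genes that passed and up to 4 of smallest p are named. All 45 symbols matched RefSeq GRCm38.p6. The number of arrays limits the precision.

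Alternatives were other filters, probe set rules, sample sets and models, a 3′ minus 5′ covariate, the replicate number as a block, centring, and leaving out arrays.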

Additional observations from a re-analysis of the deposited data

How the results depend on the processing

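Over 20 alternatives, the 15 differences that passed in the genes named with values on each array gave 297 values, of which 137 stayed past the threshold, 160 did not and 0 changed sign. Where leaving out an array left 1 in a group, that array was assumed to vary like the others. In null against heterozygous, leaving out either wild-type array gave the same fit as using only the groups compared. There these alternatives are not separate checks, though each is counted. Among all 753 alternative values of the named differences, 1 changed sign: Fen1 in null against wild type was -0.15 with shared probe sets (_s_at and _x_at) left out.

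In heterozygous against wild type (5 replication genes, 938 of all genes), 2 replication genes passed without a filter on dim genes (810 of 12393 genes). There were 9 (1188 of all) with array weights and 2 (372 of all) with the 3′ minus 5′ covariate. With only the groups compared there were 0 (172 of all), with an unmoderated model 0 (97), and without heterozygous 1 and null 1 together 0 (0). In null against heterozygous (10 and 828), the same settings gave 3 (482) with array weights, 1 (355) with only the groups compared, 0 (2) unmoderated and 0 (0) without both arrays, with a median of -0.39. The covariate left 471 of all genes. Centring arrays on their medians moved the split of all genes called from 462 higher and 366 lower to 666 and 353, and shifted the median of all genes by at most 0.04. In null against wild type, 1 of all genes passed with the mean of probe sets and 1 unmoderated. In the F test (1 and 522), 4 replication genes passed with a filter at the 50th percentile (537 of all) and 2 with a filter on all 7 arrays (518). With an intensity trend there were 6 (759), and after centring 2 (641). There were 0 with the mean of probe sets (503), without shared probe sets (486), unmoderated (21), with the covariate (217) or without both arrays (0).

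Leaving out 1 array gave 0 to 9 replication genes and 33 to 802 of all in heterozygous against wild type, 0 to 21 and 90 to 732 in null against heterozygous, 0 to 1 of all genes in null against wild type, and 0 to 7 and 34 to 470 in the F test. The medians of the 43 genes lay between 0.50 and 0.99, between -1.09 and -0.49, and, for null against wild type, between -0.27 and 0.04.

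Whether equal replicate numbers pair the arrays is not given by the labels. For arrays of equal number, the deviations from the group means were correlated over 9243 genes. The correlation was 0.111 between wild type and heterozygous, 0.0217 and -0.193 between heterozygous and null, and -0.179 and -0.414 between wild type and null. In a group of 2 arrays the deviations are mirror images of each other, so these values cannot decide whether the arrays were paired. With the replicate number as a block, 0 replication genes passed in any test, with 217, 25 and 29 of all genes in heterozygous against wild type, null against heterozygous and the F test.

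With 2 or 3 arrays a group and values on a common distribution, small differences of single genes could not be resolved, and dim genes such as Orc1 and Chaf1b least.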
